A study of Mus musculus with 6 samples.

Results

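The erythroid set described here held 30 genes, of which all 30 were found by symbol among the 47561 rows of the count tables and all 30 were among the 16022 genes tested. They were taken as 16 late red cell genes of the membrane, its skeleton and the red cell interior, 11 heme synthesis genes including mitochondrial carriers, and 3 progenitor genes, with the globin genes left out. RNA had been sequenced from LT-HSCs, the long-term repopulating stem cells of blood, sorted from the bone marrow of Piezo1 KO mice (3 libraries) and of control mice, genotype WT (3 libraries). Piezo1 encodes an ion channel that opens under membrane tension. Titles name all KO libraries Piezo1 KO, whereas the genotype entries of KO replicates 2 and 3 carry other Piezo numbers. Nothing in the labels gives the allele, a Cre driver, the age of the mice or whether each library is a separate mouse, so p-values reflect only how these samples spread, technical spread included.

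Red cell formation runs from multipotent cells through committed progenitors, which switch on the erythropoietin receptor and the transcription factor KLF1, to erythroblasts that fill with hemoglobin. Heme is built from glycine and succinyl-CoA by a chain of enzymes that starts and ends in mitochondria, with its middle steps in the cytosol. The red cell membrane is held to a spectrin skeleton through ankyrin and protein 4.1 complexes, which anchor the anion exchanger band 3 and the Rh proteins. In LT-HSCs these late genes are generally regarded as silent or barely transcribed.

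All values below are CPM, counts scaled to a common library total after trimmed-mean scaling, unless a sentence says otherwise. Fold changes are log2 values of KO over control with standard errors (SE) from edgeR's quasi-likelihood test, with p-values adjusted by the Benjamini-Hochberg method over all 16022 genes tested. Library totals lay between 59435258 and 60027480 counts in KO and between 60589306 and 64653956 in control libraries. Rows with a count numbered 18205, 18540 and 17695 in KO replicates 1 to 3 and 16264, 17994 and 16970 in control replicates 1 to 3. Control replicate 1 thus had the fewest, and the bearing of this on its low values below was not tested.

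Piezo1 had 4.27, 7.98 and 9.44 CPM in KO and 16.9, 7.01 and 24.2 CPM in control libraries, so control replicate 2 lay below KO replicates 2 and 3, and directions that include that library rest on its label. Control replicate 3 stood apart in granulocyte markers, whose 12 genes summed to 12240 CPM there and to at most 1174 CPM in every other library. It also stood apart in the 9 B lineage markers, which summed to 663 CPM there and to at most 88.9 CPM elsewhere, with Jchain at 632 CPM in that library and at 0 in the other 5 libraries; Jchain is named here after its values were seen.

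The starts of 5 members are shown because they include both isozymes of the first step of heme synthesis, a membrane gene with 0 counts in 1 library (Epb42), an Rh complex gene (Rhag) and the erythroid regulator KLF1. Each is the run of 250 bases just before a RefSeq transcription start on GRCm38.p6, written 5′ to 3′ along the gene's strand. Capitals mark AGATAA or TGATAA, or their reverse complements, the letters that GATA factors such as GATA1 are known to recognise. The windows were chrX:150547167-150547416 on the plus strand for Alas2, chr9:106247955-106248204 on the minus strand for Alas1 (the first of 2 listed starts), chr2:121036878-121037127 on the minus strand for Epb42, chr17:40810899-40811148 on the plus strand for Rhag and chr8:84901732-84901981 on the plus strand for Klf1.
Alas2: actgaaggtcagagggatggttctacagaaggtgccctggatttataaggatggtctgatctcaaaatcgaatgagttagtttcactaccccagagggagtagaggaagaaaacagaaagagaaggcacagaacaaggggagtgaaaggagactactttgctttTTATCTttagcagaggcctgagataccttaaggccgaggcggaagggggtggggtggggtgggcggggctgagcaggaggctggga
Alas1: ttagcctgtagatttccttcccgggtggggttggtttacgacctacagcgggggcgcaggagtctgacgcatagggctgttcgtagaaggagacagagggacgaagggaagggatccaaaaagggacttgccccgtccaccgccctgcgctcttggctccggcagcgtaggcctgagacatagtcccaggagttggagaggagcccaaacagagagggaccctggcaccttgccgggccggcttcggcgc
Epb42: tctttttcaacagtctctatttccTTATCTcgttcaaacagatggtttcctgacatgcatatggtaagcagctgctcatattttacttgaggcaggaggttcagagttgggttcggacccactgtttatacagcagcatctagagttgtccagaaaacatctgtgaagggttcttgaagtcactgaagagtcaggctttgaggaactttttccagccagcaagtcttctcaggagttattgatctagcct
Rhag: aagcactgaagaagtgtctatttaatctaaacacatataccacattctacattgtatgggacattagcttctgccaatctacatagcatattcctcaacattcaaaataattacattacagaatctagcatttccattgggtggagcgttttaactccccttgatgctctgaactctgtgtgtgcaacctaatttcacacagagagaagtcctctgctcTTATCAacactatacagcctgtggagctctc
Klf1: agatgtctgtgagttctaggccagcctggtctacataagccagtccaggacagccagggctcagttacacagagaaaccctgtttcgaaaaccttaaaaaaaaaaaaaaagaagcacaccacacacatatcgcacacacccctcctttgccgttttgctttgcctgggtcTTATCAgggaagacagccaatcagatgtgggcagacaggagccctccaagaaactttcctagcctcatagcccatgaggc

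The marked letters began 86 bases before the start in Alas2, 226 in Epb42, 31 in Rhag and 80 in Klf1, and the Alas1 window held none. Of the 22 members with a window in the table, 12 (54.5%) held AGATAA or TGATAA on either strand before at least 1 listed start, against 18.8% of all 27025 genes in it. They were Alas2, Cpox and Uros among heme synthesis genes, Epb42, Ermap, Kel, Rhag, Rhd and Sphk1 among late red cell genes, and Epor, Hemgn and Klf1 among progenitor genes. CCNCNCCC, a letter pattern of the kind KLF factors recognise, was in 59.1% of the members and 48.5% of all genes, and TGACTCA, the letters bound by NF-E2 and AP-1, in 9.09% and 5.16%. AGATAA and TGATAA differ in their first letter and were counted as separate matches, and a gene with several starts has more windows in which to hold a motif. Such matches describe the letters in these windows and are not measured binding sites.

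No member passed an adjusted p under 0.05. Over all genes edgeR called 0 higher and 0 lower (0% each way), and DESeq2, which called 244 genes higher (1.52%) and 286 lower (1.79%), called 0 members. At an unadjusted p under 0.05, 1 member was higher in KO (3.33%, against 5.44% of all genes tested) and 3 of 30 were lower (against 5.59%). The 3 KO libraries lay wholly above the controls in 1 member (3.33%, against 10.7% of all genes) and wholly below them in 3 of 30 (against 8.76%). The shares without overlap were thus near or under the background. The median log2 fold change was -0.17 over the 30 members and 0.03 over all genes tested.

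**Figure D1:**
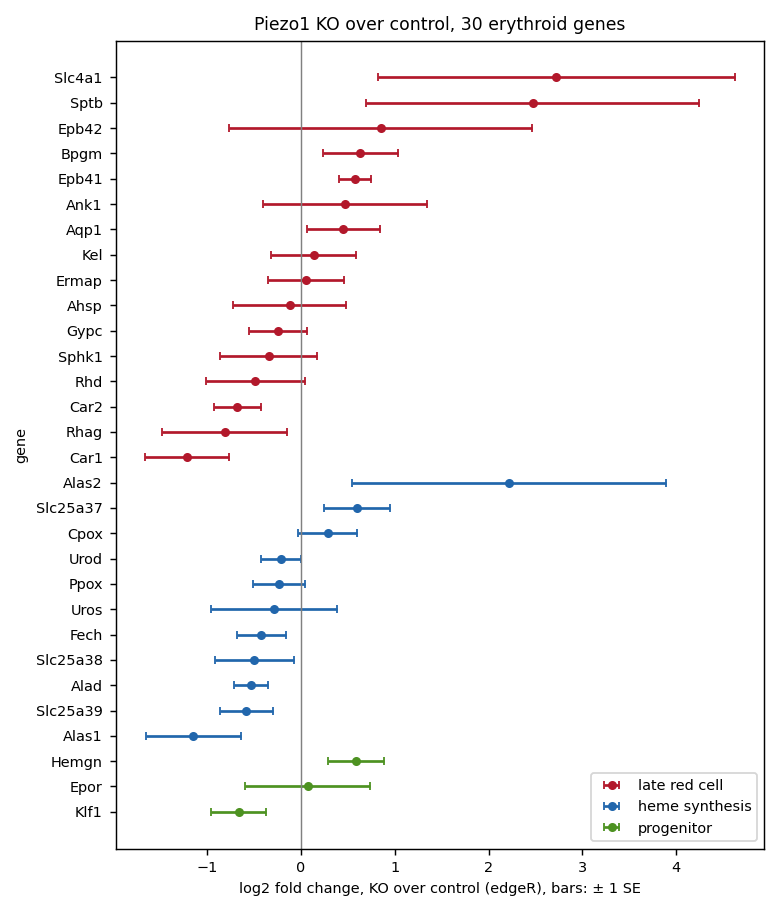
Log2 fold change of KO over control (horizontal axis, points, with bars of ± 1 SE from edgeR) for each of the 30 genes, grouped as late red cell, heme synthesis and progenitor genes and ordered by size. Slc4a1, Sptb and Alas2 stand farthest to the right with the widest bars, and Car1 and Alas1 farthest to the left.

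Among late red cell genes, the most even difference was in the membrane skeleton. Epb41 encodes protein 4.1R, which ties spectrin and actin to the membrane and is also made outside red cells. It had 59.6, 66.4 and 61.6 CPM in KO, against 41.1, 42.4 and 42.3 CPM in control libraries. Every KO library was above every control library, and the spread within each group was small. The KO mean was 62.5 ± 3.51 CPM and the control mean 41.9 ± 0.743 CPM (SD, n = 3 each), with a log2 fold change of 0.58 (SE 0.17), an unadjusted p = 0.0115 and an edgeR adjusted p = 0.317. Its log2 fold change stayed between 0.53 and 0.59 in all alternatives run.

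The other skeleton genes among the members were scarce and uneven. Sptb, the erythroid beta spectrin gene, had 6.09, 2.34 and 0.528 CPM in KO and 0, 1.21 and 0.395 CPM in control libraries. Epb42, which encodes protein 4.2, a band 3 partner, had 5.41, 5.01 and 1.78 CPM in KO and 0, 2.24 and 4.54 CPM in control libraries. Ank1, the ankyrin that links spectrin to band 3, had 11.95, 7.68 and 4.53 CPM in KO and 1.04, 4.29 and 12.1 CPM in control libraries. The groups overlapped in all 3 genes, control replicate 1 was the lowest library in each, and their edgeR adjusted p-values were 0.683, 0.915 and 0.914. A count of 0 allows up to 3 counts, or 0.0494 CPM, in control replicate 1, and this floor covers counting error only.

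Slc4a1, the gene of the anion exchanger band 3, was carried by 1 library. It had 23.8, 1.46 and 0.672 CPM in KO and 0, 2.46 and 1.47 CPM in control libraries, so KO replicates 2 and 3 lay among the controls. Its log2 fold change of 2.72 (SE 1.91; edgeR adjusted p = 0.674) turned to -0.30 without KO replicate 1. In the RNA of sorted cells, fewer cells of a type and less RNA per cell cannot be told apart.

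The Rh genes were much better covered. Rhag, the Rh-associated glycoprotein needed for Rh complexes to reach the surface, had 70.1, 42.2 and 7.64 CPM in KO and 67.8, 57.7 and 85.5 CPM in control libraries. Rhd, the Rh blood group protein of the mouse, had 124, 44.1 and 27.4 CPM in KO and 82.1, 76.5 and 116 CPM in control libraries. In both genes KO replicate 1 lay within the control range or above it, and KO replicates 2 and 3 lay below every control. The log2 fold changes were -0.81 (SE 0.67) and -0.49 (SE 0.53), with edgeR adjusted p-values of 0.737 and 0.816. With 1 library left out at a time, Rhag ranged from -1.51 without KO replicate 1 to -0.34 without KO replicate 3, and Rhd from -1.38 to -0.14 without the same libraries.

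The remaining membrane proteins showed no separation of the groups. Gypc, glycophorin C, which binds protein 4.1, had a KO mean of 66.02 ± 6.84 and a control mean of 78.2 ± 30.1 CPM (SD, n = 3 each). Ermap, an erythroid membrane-associated protein gene, had a KO mean of 73.8 ± 28.5 and a control mean of 71.1 ± 35.1 CPM. Kel, the Kell blood group protease, had a KO mean of 24.9 ± 13.6 and a control mean of 22.7 ± 6.57 CPM, and Aqp1, the water channel, one of 80.1 ± 29.6 and a control mean of 58.6 ± 25.3 CPM. The groups overlapped in each of the 4, with edgeR adjusted p-values from 0.754 (Aqp1) to 0.984 (Ermap). The sign of Ermap and Kel depended on which library was left out.

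Carbonic anhydrase genes, whose products interconvert carbon dioxide and bicarbonate, were by far the most abundant members in CPM. Levels per kilobase leave out Ahsp, for which no exon length was found. Per kilobase of exon, the KO mean of Car1 was 893 CPM and its control mean 2075 CPM. Those of Car2 were 673 and 1078 CPM. Of 14339 tested genes with an exon length, Car1 ranked 72 in KO and 20 in control by this level, and Car2 ranked 98 and 64. The libraries labelled LT-HSC thus carried these 2 transcripts, which erythroid progenitors are known to hold at high levels, among their most abundant, in both genotypes. Car1 and Ermap were also on the list of early erythroid progenitor markers given below, so the class called late red cell is not restricted to late genes.

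Car2 had 2262, 1471 and 1158 CPM in KO, against 2853, 2341 and 2636 CPM in control libraries. Each KO library was below each control library, with KO replicate 1 closest to them. The KO mean was 1630 ± 569 CPM and the control mean 2610 ± 257 CPM (SD, n = 3 each), a log2 fold change of -0.68 (SE 0.25), with an unadjusted p = 0.0289 and an edgeR adjusted p = 0.397. In DESeq2 its adjusted p of 0.0601 was the lowest of any member. Car1 had 1592, 696 and 1055 CPM in KO and 3065, 1184 and 3518 CPM in control libraries. Control replicate 2 lay below KO replicate 1, so the groups overlapped, although the log2 fold change of Car1 was larger, at -1.22 (SE 0.45; unadjusted p = 0.029, edgeR adjusted p = 0.397).

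Further genes of the red cell interior are Ahsp, the alpha hemoglobin stabilizing protein, Bpgm, which makes the 2,3-bisphosphoglycerate that tunes oxygen release, and Sphk1, the sphingosine kinase by which red cells make sphingosine 1-phosphate. Ahsp had 629.6, 272 and 133 CPM in KO and 265, 235 and 627 CPM in control libraries. KO replicate 1 and control replicate 3 were both about as high as each other and above the other 4 libraries. Bpgm had 56.9, 35.98 and 26.3 CPM in KO and 29.3, 15.2 and 32.5 CPM in control libraries, with a log2 fold change of 0.63 (SE 0.40; edgeR adjusted p = 0.627). That of Bpgm was 0.26 without KO replicate 1 and 0.34 without control replicate 2. Sphk1 had a KO mean of 31.1 ± 14.2 and a control mean of 39.5 ± 22.1 CPM (SD, n = 3 each), with overlapping groups.

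**Figure D2:**
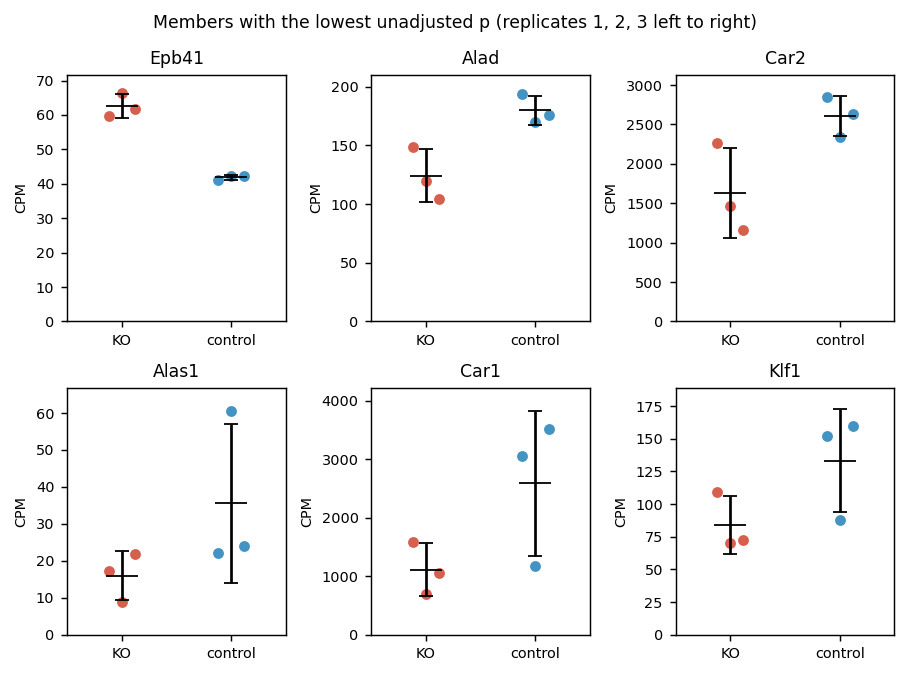
CPM (vertical axes, from 0) of Epb41, Alad, Car2, Alas1, Car1 and Klf1 in each library (points, replicates 1 to 3 from left to right), with KO left of control; horizontal marks and bars are the mean ± SD of 3 libraries. The groups do not overlap in Epb41, where KO is above control, or in Alad, Car2 and Alas1, where KO is below it, and overlap in Car1 and Klf1.

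Of 11 heme synthesis genes, 8 had a negative and 3 a positive log2 fold change, with a median of -0.29, where 7666 of the 16022 genes tested had a negative one. The KO libraries lay wholly below the controls in 2 of the 11 (18.2%, against 8.76% of all genes) and wholly above them in 0 (against 10.7%). At an unadjusted p under 0.05, 1 was lower (9.09%, against 5.59% of all genes) and 0 were higher (against 5.44%), and these shares at that p were near the background. Without KO replicate 1 the median was -0.70, with 5 lower (against 5.07% of all genes) and 0 higher (against 4.45%) at that p. Without KO replicate 2 the median was -0.17, and 0 were lower (against 3.9%). None passed the adjusted threshold in these fits.

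Alas1 and Alas2 encode the isozymes of 5-aminolevulinate synthase, the first enzyme of the pathway: Alas1 is made in all tissues, and Alas2 is specific to the erythroid lineage. Alas1 had 17.1, 8.95 and 21.98 CPM in KO, against 22.2, 60.5 and 23.95 CPM in control libraries. There was no overlap, but KO replicate 3 and control replicate 1 nearly met and control replicate 2 stood well above the rest. The log2 fold change was -1.15 (SE 0.51), with an unadjusted p = 0.057 and an edgeR adjusted p = 0.471, and it was -0.55 without control replicate 2.

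Alas2 had 58.03, 18.3 and 3.44 CPM in KO and 0, 13.3 and 3.89 CPM in control libraries. KO replicate 1 was highest, control replicate 1 had 0 counts, and KO replicate 3 lay below control replicates 2 and 3. The log2 fold change was 2.21 (SE 1.67) with an edgeR adjusted p = 0.709. The fold change on that scale was 0.92 without KO replicate 1 and 3.77 without control replicate 2. In the GENCODE M21 annotation 12.9% of the exon length of Alas2 overlaps Apex2 on the opposite strand, and since no strand is stated, some reads could belong to either gene. Apex2 itself stood between 4.89 and 16.1 CPM in KO and between 7.56 and 18.5 CPM in control libraries.

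Set against each other per kilobase of exon, Alas2 made up 89.7%, 84.0% and 28.7% of both isozymes in KO replicates 1 to 3, and 0%, 36.1% and 29.5% in control replicates 1 to 3. KO replicates 1 and 2 were thus above every control, and KO replicate 3 was inside the control range. This share was formed after the values of both genes were known and was not tested.

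Alad, the enzyme that joins 2 molecules of aminolevulinate into porphobilinogen, had 149, 119 and 104 CPM in KO, against 194, 170.1 and 176 CPM in control libraries. All KO libraries were below all controls. The KO mean was 124 ± 22.5 CPM and the control mean 179.8 ± 12.4 CPM (SD, n = 3 each), with a log2 fold change of -0.53 (SE 0.18), an unadjusted p = 0.0199 and an edgeR adjusted p = 0.368. Per kilobase of exon it was the most abundant of the heme synthesis members in both groups, with Urod next, at 66.4 and 61.7 CPM in KO and 96.1 and 71.7 CPM in control.

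The later enzymes close and modify the porphyrin ring. Uros, which makes uroporphyrinogen III, had 69.04, 22.5 and 19.9 CPM in KO and 72.03, 50.01 and 14.2 CPM in control libraries. Urod, which follows it, had 209, 133 and 137 CPM in KO and 195, 188 and 174 CPM in control libraries. KO replicates 2 and 3 of Urod were below every control and KO replicate 1 was above them, whereas Uros was lowest in control replicate 3. Cpox and Ppox, the mitochondrial oxidases of coproporphyrinogen and protoporphyrinogen, gave log2 fold changes of 0.28 (SE 0.31) for Cpox and -0.24 (SE 0.28) for Ppox, with overlapping groups. With 1 library left out at a time, Cpox ranged over 0.084 to 0.60 and Ppox over -0.42 to -0.046. In the annotation 17.5% of the exon length of Ppox overlaps B4galt3 on the opposite strand. Fech, ferrochelatase, which inserts the iron, had 89.7, 61.2 and 52.1 CPM in KO and 90.7, 73.04 and 109 CPM in control libraries. Its log2 fold change of -0.42 (SE 0.26; edgeR adjusted p = 0.617) was -0.70 without KO replicate 1 and -0.27 without control replicate 3.

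The 3 mitochondrial carriers did not share a direction. Slc25a37, mitoferrin 1, brings iron into erythroid mitochondria and had 106, 50.3 and 79.1 CPM in KO and 38.4, 43.8 and 73.7 CPM in control libraries. Slc25a38, which carries glycine for the first step of the pathway, had 35.6, 11.6 and 18.4 CPM in KO and 26.3, 36.3 and 30.04 CPM in control libraries. Slc25a39, a carrier of glutathione, had 159, 98.3 and 102 CPM in KO and 222, 191 and 126 CPM in control libraries. KO replicates 2 and 3 lay below every control in both Slc25a38 and Slc25a39, and Slc25a37 was highest in KO replicate 1. The log2 fold changes of Slc25a37, Slc25a38 and Slc25a39 were 0.59 (SE 0.35), -0.50 (SE 0.42) and -0.58 (SE 0.28), with edgeR adjusted p-values of 0.599, 0.749 and 0.504. Leaving out KO replicate 1 gave 0.30, -1.06 and -0.86. Slc25a37 was 0.93 without control replicate 3 and Slc25a38 -0.19 without KO replicate 2.

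The 3 progenitor genes also differed among themselves. Klf1, the transcription factor of globin, membrane and heme genes, had 109, 70.1 and 72.3 CPM in KO and 152, 87.9 and 159.6 CPM in control libraries. Control replicate 2 lay below KO replicate 1, and the log2 fold change was -0.67 (SE 0.29; unadjusted p = 0.0539, edgeR adjusted p = 0.463). Epor, the erythropoietin receptor, had 57.3, 14.8 and 31.1 CPM in KO and 11.7, 26.9 and 59.7 CPM in control libraries, with a wide spread in both groups and a log2 fold change of 0.07 (SE 0.67). Hemgn, hemogen, a nuclear protein of blood progenitors, had 161, 80.9 and 88.2 CPM in KO and 63.6, 87.3 and 70.1 CPM in control libraries. KO replicate 1 was well above all others, and the log2 fold change of 0.58 (SE 0.30; edgeR adjusted p = 0.532) was 0.18 without it.

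**Figure D3:**
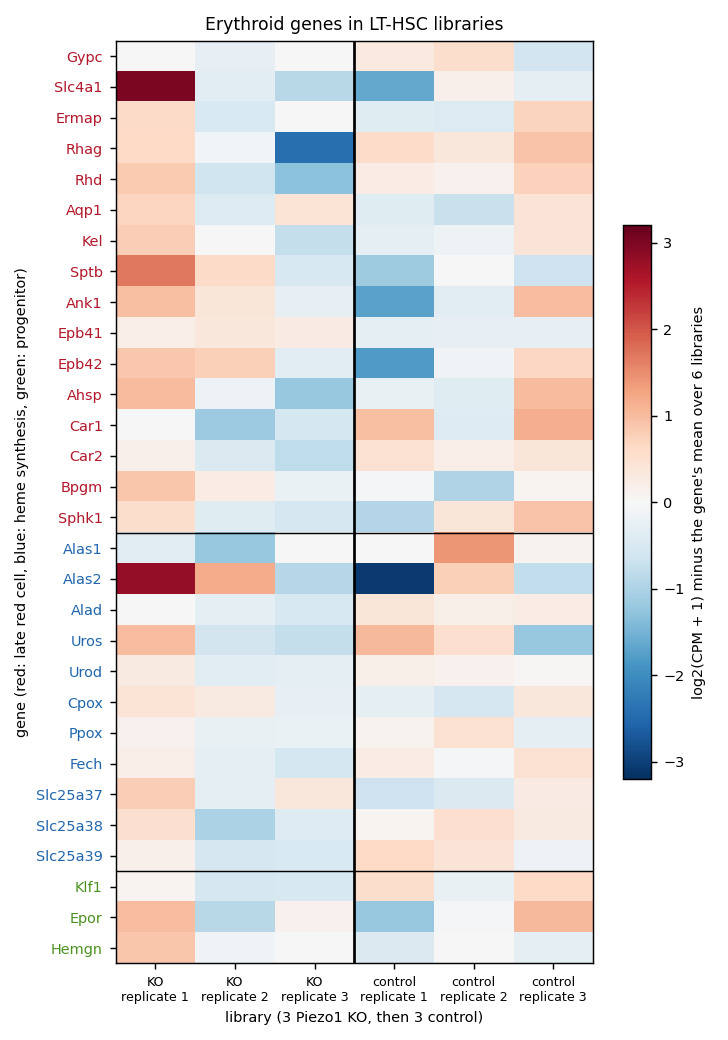
Each row is 1 of the 30 genes and each column a library, KO left of control; colour gives log2(CPM + 1) minus the gene's mean over the 6 libraries. KO replicate 1 is mostly red and KO replicates 2 and 3 mostly blue, and the darkest blue cells of control replicate 1 are Alas2, Epb42, Ank1 and Slc4a1.

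The members spread widely between libraries of the same group. KO replicate 1 was the highest of the 6 libraries in 13 of the 30 members and the lowest in 0. KO replicates 2 and 3 were highest in 1 and 0 members and lowest in 7 each. Control replicates 1, 2 and 3 were highest in 4, 4 and 8 members and lowest in 10, 3 and 3. The mean over the 30 members of log2(CPM + 1), relative to each gene's own mean, was 0.70, -0.23 and -0.45 in KO replicates 1 to 3 and -0.29, 0.04 and 0.24 in control replicates 1 to 3. KO replicate 1 was thus above, and KO replicate 3 below, every control library.

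Without KO replicate 1, 9 of 30 members were lower at an unadjusted p under 0.05, against 5.07% of 16921 genes tested, and 1 was higher, against 4.45%. They were Rhd, Car1 and Car2 among late red cell genes, Alad, Urod, Fech, Slc25a38 and Slc25a39 among heme synthesis genes, and Klf1, while Epb41 was the higher one. Their edgeR adjusted p-values were 0.411 at the lowest, so none passed. Conversely, the count of lower members was 0 without KO replicate 2 (3.9% of all genes), 1 without control replicate 1 (3.35%) and 1 without KO replicate 3 (3.46%). Without control replicate 3, the library rich in granulocyte markers, 4 members were lower (7.62% of all genes) and 2 higher (7.86%). Without control replicate 2, whose Piezo1 level lay within the KO range, 4 were lower (5.69%). With all 6 libraries DESeq2 gave 6 lower members at an unadjusted p under 0.05 (7.64% of all genes).

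**Figure D4:**
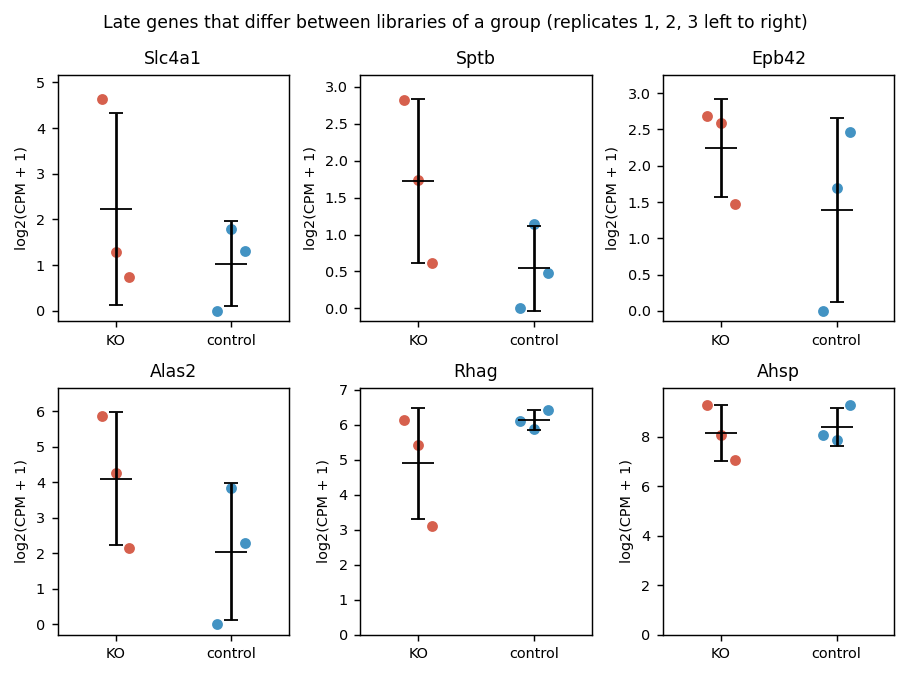
Log2(CPM + 1) (vertical axes) of Slc4a1, Sptb, Epb42, Alas2, Rhag and Ahsp in each library (points, replicates 1 to 3 from left to right), with KO left of control; horizontal marks and bars are the mean ± SD of 3 libraries. KO replicate 1 is the highest library in Slc4a1, Sptb, Epb42, Alas2 and Ahsp, control replicate 1 is at 0 in the first 4 of these, and Rhag is lowest in KO replicate 3.

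The summed globin level was 24395, 9158 and 7070 CPM in KO replicates 1 to 3, against 284, 1242 and 3829 CPM in control replicates 1 to 3, so every KO library was above every control. The 16 late red cell members without Car1 and Car2 summed to 1355, 677 and 524 CPM in KO and to 708, 691 and 1257 CPM in control replicates 1 to 3. In both sums KO replicate 1 was the highest and KO replicate 3 the lowest KO library, and control replicate 3 was the highest control, but in the second KO replicates 2 and 3 lay below every control library. In the mean log2(CPM + 1) over all 16 late red cell members, relative to each gene's own mean, KO replicate 2 at -0.13 was above control replicate 1 at -0.39, so that order did not hold in this mean. With Car1 and Car2 the sums were 5209, 2844 and 2737 CPM in KO and 6625, 4217 and 7410 CPM in control libraries.

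**Figure D5:**
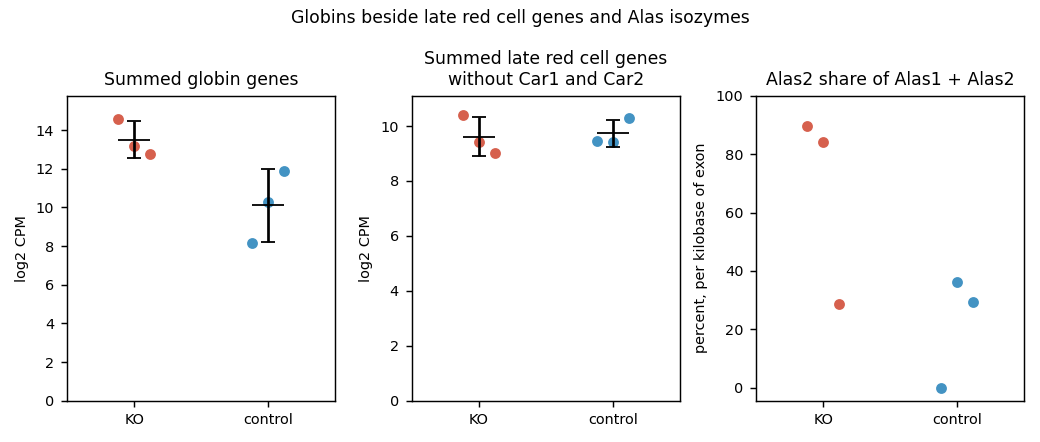
Left and middle, log2 of the summed CPM of the globin genes and of the late red cell genes other than Car1 and Car2; right, the percentage of Alas2 in Alas1 plus Alas2 per kilobase of exon. Points are libraries, replicates 1 to 3 from left to right with KO left of control, and marks and bars in the left and middle panels are the mean ± SD of the 3 log2 values; the groups separate in the globin panel and overlap in the other panels.

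Of 66 other erythroid genes found by symbol, 64 were tested, and 44 of these had a positive and 20 a negative log2 fold change, with a median of 0.23. At an unadjusted p under 0.05, 9 were higher in KO and 3 lower (of 64; 5.44% and 5.59% over all genes), and 0 passed the adjusted threshold. The 4 higher genes with the smallest p were Jak2, Fn3k, Zfpm1 and Ldb1. Jak2, the kinase bound to the erythropoietin receptor and to the thrombopoietin receptor, had 78.7, 93.6 and 99.7 CPM in KO, against 28.3, 53.1 and 43.4 CPM in control libraries, with no overlap. Its log2 fold change was 1.12 (SE 0.26; edgeR adjusted p = 0.255). Fn3k, a kinase that removes sugar adducts from proteins, had a KO mean of 10.6 ± 2.75 and a control mean of 1.46 ± 1.02 CPM (SD, n = 3 each).

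Zfpm1, FOG1, the cofactor of GATA1 in both erythroid and megakaryocyte cells, had a KO mean of 71.7 ± 14.8 and a control mean of 33.98 ± 11.5 CPM (SD, n = 3 each). Ldb1, the bridging protein of GATA1 and TAL1 complexes, had a KO mean of 60.5 ± 3.97 and a control mean of 36.7 ± 9.82 CPM. The 3 lower ones were Gfi1b, Pim1 and Slc11a2. Gfi1b, a repressor needed for red cells and platelets, had 148, 115 and 100.1 CPM in KO, against 231, 198 and 173 CPM in control libraries, without overlap. Pim1, a survival kinase induced by cytokines, gave a log2 fold change of -0.87 (SE 0.31). That of Slc11a2, the iron transporter DMT1, was -0.76 (SE 0.27). Gata1, the erythroid master regulator, had a KO mean of 82.3 ± 24.8 and a control mean of 100.3 ± 25.7 CPM, with overlapping groups. Of 14 early erythroid progenitor markers, 13 were tested, 6 with a positive and 7 with a negative log2 fold change. At an unadjusted p under 0.05, 2 were higher (Zfpm1 and Kit) and 2 lower (Gfi1b and Car1), against 5.44% and 5.59% of all genes. They summed to between 1888 and 3223 CPM in KO and between 2386 and 5322 CPM in control libraries. Car1 alone had 696 to 1592 CPM in KO and 1184 to 3518 CPM in control libraries.

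Markers of other cells differed between some of these libraries, and their part in the erythroid values was not tested. All 14 stem cell markers were tested and had counts in every library, summing to between 1342 and 1671 CPM in KO and between 1375 and 1927 CPM in control libraries. Megakaryocyte and platelet markers, of which 11 of 13 were tested, summed to between 1955 and 2869 CPM in KO and between 997 and 1298 CPM in control libraries. Markers with an unadjusted p under 0.05 were Kit (log2 fold change 0.79), Ly6a (-1.41) and Procr (-1.82) of the stem cell list. For platelets the first 4 were Pf4 (1.29), Itga2b (1.62), Itgb3 (1.45) and Vwf (1.5), and single ones were Mrc1 (5.2) of macrophages and Nkg7 (0.64) of T and NK cells. The edgeR adjusted p-values of these 9 genes were between 0.255 and 0.398. Mrc1 had 1.71, 1.19 and 10.1 CPM in KO and 0.165, 0.146 and 0.0359 CPM in control libraries, so its fold change rests on very low control values. The 12 granulocyte markers summed to between 120.0 and 1174 CPM in KO, to 176 and 225 CPM in control replicates 1 and 2, and to 12240 CPM in control replicate 3. The 10 macrophage markers stayed between 32.2 and 67.6 CPM in KO and between 36.2 and 117 CPM in control libraries. T and NK lineage markers summed to between 246 and 263 CPM in KO and between 131 and 208 CPM in control libraries, and mast cell and basophil markers to between 139 and 197 CPM in KO and between 89.3 and 123 CPM in control libraries. Both sums were mostly a single gene. Nkg7 alone had 248, 250 and 245 CPM in KO and 207, 127 and 143 CPM in control libraries. Gata2, named here after its values were seen, had 119, 140 and 193 CPM in KO and 108, 121 and 72.0 CPM in control libraries.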

How the data were processed

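RNA of 6 mouse LT-HSC libraries had been prepared with TRIZOL and a TruSeq kit, per the labels' protocols, with no strand stated. The authors deposited whole-number counts per gene, 47561 rows per library, not normalized, including 2046 rows with assembler-style identifiers. Alignment and counting tools appear without role or settings in the submitters' processing notes, which list mm10 as the build, HISAT2 (2.1) and featureCounts (1.6.4).

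The counts were fitted with edgeR 4.0.16 in R 4.3.3: filterByExpr, trimmed-mean scaling (TMM), and the quasi-likelihood F test over all 6 libraries, with Benjamini-Hochberg adjustment and a threshold of 0.05. The SE is the absolute log2 fold change divided by the square root of F. DESeq2 1.42.0 and limma-voom (limma 3.58.1) were alternatives. The fit was tested on simulated counts, and the share of changed genes that it recovered there is not reported here. Members and lists were chosen with earlier results of these data known. All 30 members are named, and from other lists up to 4 genes per direction with the smallest p under 0.05. Globin genes are given only as a sum, and a further gene set to be named is not reported here. Exon lengths, found for 29 members (not Ahsp), come from GENCODE M21 and promoter windows from RefSeq GRCm38.p6. Every pair of libraries differed beyond sampling noise (chi-square per gene at least 110).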

Additional observations from a re-analysis of the deposited data

How the results depend on the processing

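In every alternative, 0 members passed the adjusted threshold. Over all genes the calls were 0 higher and 0 lower except in DESeq2 (244 higher, 286 lower), with at least 1 CPM in 3 libraries (1 lower, Ugt1a7c) and without control replicate 1 (1 higher, Gm20716); neither is a member, and both are named here after their values were seen. With 1 library left out the range was 0 to 1 higher and 0 to 0 lower. The count of members lower at an unadjusted p under 0.05, 3 with all libraries, was 6 in DESeq2 and 5 with the replicate number as a block (where 762 of 16022 genes were lower), and ranged from 0 to 9 with 1 library left out. The count of higher members, 1, ranged from 1 to 2. In the main edgeR fit with all libraries, both counts were 0 at an unadjusted p under 0.01. In DESeq2, Car2 (unadjusted p = 0.00235), Alad (0.00477) and Epb41 (0.00631) were under that threshold. The median log2 fold change of heme synthesis members ranged from -0.70 to -0.17 with 1 library left out.

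No alternative other than leaving out a library turned the sign of a member. With 1 library left out, the log2 fold changes that turned ranged over -0.90 to 0.47 for Ahsp, -0.027 to 1.6 for Ank1, -0.52 to 0.84 for Epor, -0.30 to 0.54 for Ermap, -0.39 to 0.44 for Kel, -0.30 to 3.55 for Slc4a1, -0.80 to 0.095 for Sphk1 and -1.12 to 0.21 for Uros. The cause was not tested. Replicate numbers did not clearly pair the libraries: same-numbered deviations correlated at 0.069, 0 and 0.055. KO replicates 1 and 3 correlated best with the control of the same number, and KO replicate 2 with control replicate 1 (0.032). All correlations were small, from -0.094 to 0.069. Slc4a1, Sptb and Epb42 had 0 counts in control replicate 1. In the other libraries they had 42 to 1423, 22 to 364 and 111 to 323 counts.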
